A study of Homo sapiens with 18 samples.

Results

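The comparison asked which transcripts of the human hepatocellular carcinoma line HepG2 differ when a plasmid-encoded microRNA named EXACT1 is expressed. Of the 18 libraries of the series, the 6 HepG2 libraries were compared, 3 with EXACT1 against 3 controls. HepG2 cells of both groups were transfected by lipid with 100 ng plasmid per well. The control plasmid expressed the green fluorescent protein mNeonGreen, and the other plasmid expressed mNeonGreen together with EXACT1. Both groups therefore shared transfection and mNeonGreen, and untransfected cells were not among the libraries. HepG2 is a single tumour line, so a hepatocyte transcript in it shows the level in a carcinoma and not in liver. The libraries were made from polyadenylated RNA with a kit that marks strand, which captures mRNA and does not count mature microRNAs. Whether replicates were separate cultures is not stated in the labels. Each p-value therefore refers to the scatter among these libraries alone, which may be technical. Because EXACT1 replicate 1 lay far from every other library, each result is given with all 6 libraries and without it.

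MicroRNAs are short RNAs that guide Argonaute proteins to mRNAs. Pairing runs mainly through the seed near the 5′ end of the microRNA, and a bound mRNA is usually translated less and degraded sooner through deadenylation. A microRNA made from a plasmid uses the Drosha, exportin 5, Dicer and Argonaute proteins that also serve the microRNAs of the host cell. HepG2 cells secrete albumin, apolipoproteins and other plasma proteins and keep much of the hepatocyte transcription factor network. The sequence of EXACT1 was not used here, so no seed match to it was searched.

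SMN2 was the gene with the smallest adjusted p once EXACT1 replicate 1 was left out, and it has a near-identical neighbour, SMN1. Both encode SMN, the protein that loads Sm proteins onto spliceosomal small nuclear RNAs. In matched coding transcripts of GENCODE 29 (GRCh38, plus strand of chromosome 5), 1536 bases were compared and 2 differed. The 25 bases around each difference are shown because counts can be told apart between the genes only through such stretches, and capitals mark the base that differs. Exons are numbered as in those transcripts. The first stretch crosses an exon junction into exon 8 and is coding. Its genomic span, intron included, is chr5:70946170-70951958 for SMN1 and chr5:70070745-70076538 for SMN2.
SMN1, exon 8: ttatatgggtttCagacaaaatcaa
SMN2, exon 8: ttatatgggtttTagacaaaatcaa
The second stretch lies in the 3′ untranslated region in exon 9, at chr5:70952662-70952686 for SMN1 and chr5:70077242-70077266 for SMN2.
SMN1, exon 9: tgtaaaagactgGggtgggggtggg
SMN2, exon 9: tgtaaaagactgAggtgggggtggg

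To look at targets of human microRNAs, 5 mature sequences were taken from RefSeq (GRCh38.p14) and are printed with the seed, bases 2 to 8, in capitals. Their levels in HepG2 were not measured by these libraries. Values of their targets therefore do not show whether these microRNAs act in this line. They include let-7a, which restrains oncofetal genes, miR-17 of a proliferative cluster, the hepatocyte microRNA miR-122, the widely expressed miR-21, and miR-192 of liver and gut. No 2 of them share a seed.
hsa-let-7a-5p, chr11:122146568-122146589, minus strand: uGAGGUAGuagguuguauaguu
hsa-miR-17-5p, chr13:91350618-91350640, plus strand: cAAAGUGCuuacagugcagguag
hsa-miR-122-5p, chr18:58451088-58451109, plus strand: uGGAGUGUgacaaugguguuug
hsa-miR-21-5p, chr17:59841273-59841294, plus strand: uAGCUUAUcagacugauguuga
hsa-miR-192-5p, chr11:64891203-64891223, minus strand: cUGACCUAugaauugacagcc

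The libraries held 70897097 to 77100150 counts over 20586 to 22009 detected genes. All 12 hepatocyte markers exceeded 1 CPM (CPM are counts scaled to a common TMM library size). ALB, the main plasma protein, stood at 32147, 36688 and 37161 CPM with EXACT1 and 40336, 36272 and 34295 CPM in the controls. Of markers of other cells, 2 of 12 for stellate cells and fibroblasts, 3 of 12 for sinusoidal endothelium, 5 of 12 for macrophages and leukocytes and 5 of 8 for cholangiocytes exceeded 1 CPM. The leukocyte list summed to 1952 to 3440.1 CPM, nearly all of it lysozyme (LYZ, 1767, 3123 and 3261 CPM with EXACT1 and 3382, 3083 and 3209.7 CPM in the controls), while CD163, MARCO and MS4A1 were at 0 counts in every library. The neuroblast list summed to 5.88 to 7.54 CPM and the embryonic kidney list to 22.4 to 31.4 CPM over the 6 libraries.

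EXACT1 replicate 1 stood apart in composition. Over 8754 genes with a mean of at least 10 CPM, 1993 lay more than 2-fold above and 2733 more than 2-fold below the level of the other 5 libraries, 54.0% in all. For each of the other libraries, against a reference that EXACT1 replicate 1 hardly moved, this share lay between 0.149% and 0.206%. Its deviation followed transcript length. In genes whose longest annotated transcript had at most 1000 bases, the median log2 difference was 1.32 over 263 genes, and in genes above 8000 bases it was -1.48 over 800 genes, with intermediate bins in order between them. Messages of ribosomal proteins took 9.73% of its counts against 4.56 to 4.71% elsewhere. The part of RNA quality or library preparation in this was not tested.

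**Figure D1:**
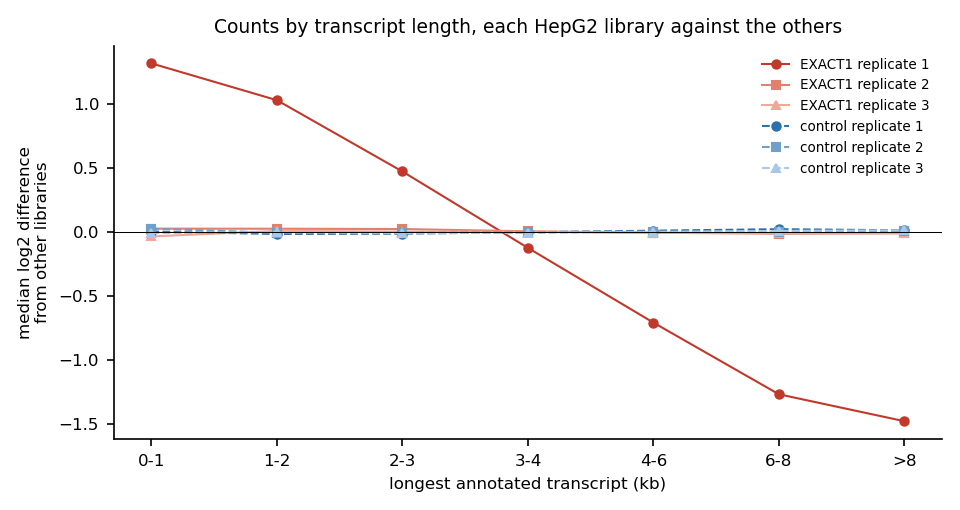
Median log2 difference of each HepG2 library from other libraries (vertical axis) by the length of a gene's longest annotated transcript in kilobases (horizontal axis), over genes with a mean of at least 10 CPM. EXACT1 replicate 1 runs from 1.32 in the shortest to -1.48 in the longest transcripts, and the other 5 libraries lie near 0 throughout.

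Across all 6 libraries no transcript passed the test. The robust quasi-likelihood F test of edgeR with Benjamini-Hochberg adjustment called 0 of 17139 genes (0%), with a smallest adjusted p of 0.792, and 164 genes (0.957%) had an unadjusted p under 0.05. DESeq2 called 11 of 24474 genes (0.0449%) on the same libraries, and weighted limma voom called 2 (0.0117%), which were SMN2 and the unnamed gene ENSG00000288473. Without EXACT1 replicate 1, edgeR called 2 of 17832 genes (0.0112%), SMN2 and SMG1P6, both lower with EXACT1. There 467 genes (2.62%) had an unadjusted p under 0.05, DESeq2 called 22 of 27510 genes (0.08%) and limma voom called SMN2 alone (0.00561%). The median log2 fold change over all tested genes was 0.00 in both fits, and with 5 libraries 49% of genes lay above 0.

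The precision differed widely between the fits. With 5 libraries, 12187 genes (68.3%) had a 95% interval within a 2-fold change in either direction and 10087 (56.6%) within a 1.5-fold change. At 100 CPM and above, 99.7% of 1681 genes were bounded within 2-fold and 0 genes had an estimate beyond 2-fold. At 20 to 100 CPM this held for 99.2% of 4860 genes, at 1 to 5 CPM for 70.6%, and below 0.5 CPM for 0%. With all 6 libraries, 26% of genes were bounded within 2-fold, and 41.4% of those at 100 CPM and above. The median standard error of these abundant genes was 0.334 with EXACT1 replicate 1 and 0.0638 without it.

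**Figure D2:**
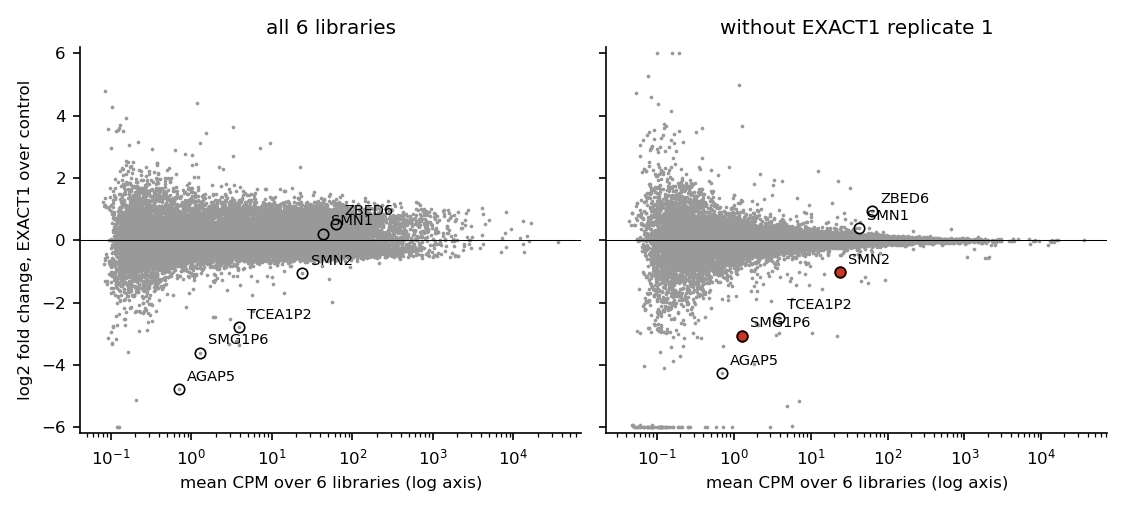
Log2 fold change of EXACT1 over control (vertical axis) against mean CPM over the 6 libraries (logarithmic horizontal axis) for every tested gene, with all 6 libraries (left) and without EXACT1 replicate 1 (right). Filled circles are called genes, open circles are other genes named in the text, and values beyond 6 are drawn at 6. The cloud narrows around 0 without that library, and the 2 called genes, SMN2 and SMG1P6, lie below it.

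SMN2 fell by 1.03 on the log2 scale with EXACT1 (SE 0.10, 95% interval -1.25 to -0.80) when EXACT1 replicate 1 was left out, with an edgeR adjusted p of 0.0166. The call ended when control replicate 2 (adjusted p 0.130) or EXACT1 replicate 2 (0.0543) was also left out, and with a spread shared with SH-SY5Y (1). It stood at 14.8, 14.9 and 16.9 CPM with EXACT1 and 29.96, 32.4 and 34.5 CPM in the controls. All 3 EXACT1 libraries lay below all controls, EXACT1 replicate 1 included, and with all 6 libraries the log2 fold change was -1.06 (SE 0.22), which did not pass. SMN1 stood at 33.5, 52.9 and 50.4 CPM with EXACT1 and 36.9, 37.8 and 43.4 CPM in the controls. In replicates 2 and 3 SMN1 lay above all controls, with a log2 fold change of 0.39 (SE 0.09, 95% interval 0.20 to 0.58) that did not pass adjustment, while EXACT1 replicate 1 lay below them. The sum of both genes was 48.3, 67.7 and 67.2 CPM with EXACT1 and 66.9, 70.2 and 77.9 CPM in the controls. That sum had a log2 fold change of -0.09 (SE 0.08, 95% interval -0.25 to 0.08) without EXACT1 replicate 1 and -0.23 (SE 0.24) with it, and neither passed.

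Seen as a share, SMN2 made up 30.7, 21.9 and 25.1% of the SMN1 and SMN2 counts with EXACT1 and 44.8, 46.2 and 44.3% in the controls. The means were 25.9 ± 4.42% and 45.1 ± 0.992% (SD, n = 3 each), and the groups did not overlap. An exact two-sided permutation test gave p = 0.1, the smallest p that 3 against 3 libraries allow. SMN2 was picked by its p in these same libraries, so this test adds no support. For the summed CPM of SMN1 and SMN2 the same permutation test gave p = 0.3. The longest annotated transcripts of both genes, which are not the coding pair compared above, aligned at 99.94% identity over 1550 bases. How the counting treated reads that match both genes is not given in the sources used here. SMN protein works with the Gemin proteins. GEMIN2, its direct partner, stood at 13.3, 26.1 and 24.8 CPM with EXACT1 and 20.2, 23.0 and 25.7 CPM in the controls, and GEMIN5, which binds the small nuclear RNA, at 11.4, 29.2 and 30.9 CPM with EXACT1 and 29.98, 31.1 and 32.9 CPM in the controls. Of 18 tested genes of the SMN and Gemin complex, SMN2 alone was called without EXACT1 replicate 1 (0.0112% of all tested genes were), and 17 had a 95% interval within 1.5-fold, against 98.5% of all genes at 20 to 100 CPM and 86.2% at 5 to 20 CPM. With all 6 libraries, 3 members lay higher with EXACT1 without overlap and 1 lower, against 5.09% and 5.13% of all tested genes.

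**Figure D3:**
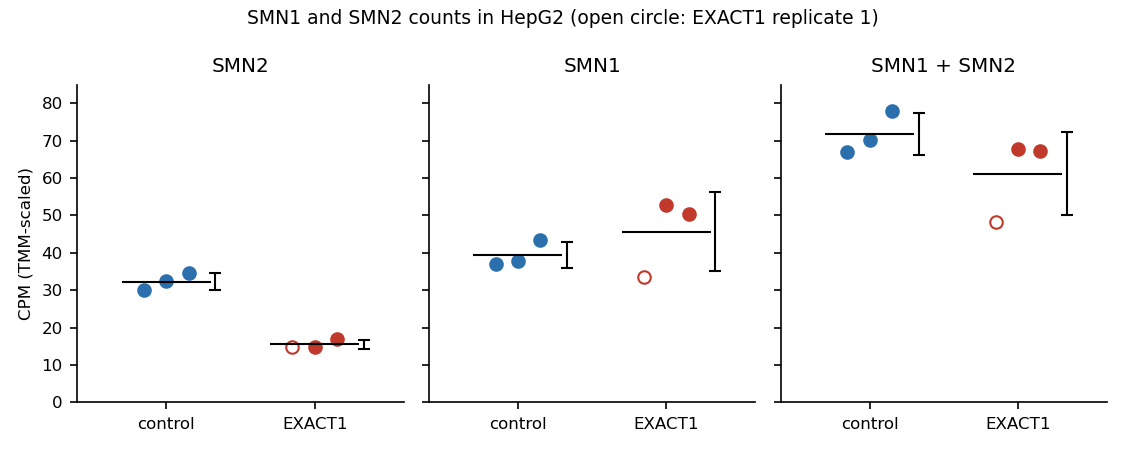
CPM of SMN2, SMN1 and their sum in each HepG2 library. Circles are libraries, the open circle is EXACT1 replicate 1, lines are group means and bars are 1 SD (n = 3). SMN2 separates the groups, at 14.8 to 16.9 CPM with EXACT1 and 29.96 to 34.5 CPM in controls, while replicates 2 and 3 of the summed counts reach the range of the controls.

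SMG1P6, the other called gene, is an unprocessed pseudogene of SMG1, the kinase that phosphorylates UPF1 in nonsense-mediated decay. It lies at chr16:29425800-29447026 and stood at 0, 0.332 and 0.231 CPM with EXACT1 and 2.76, 1.89 and 2.47 CPM in the controls, so no EXACT1 library reached a control. Without EXACT1 replicate 1 its log2 fold change was -3.07 (SE 0.36, 95% interval -3.86 to -2.28), with an edgeR adjusted p of 0.0403. Leaving out any further library except control replicate 3 ended this call (adjusted p 0.0592 to 0.132), as did limma voom (0.739) and a spread shared with SH-SY5Y (1). SMG1P6 aligned to SMG1 at 98.47% identity and to SMG1P5 at 98.74%. SMG1 itself stood at 18.5, 102 and 101 CPM with EXACT1 and 107, 107 and 112 CPM in the controls, and the sum of SMG1 and its pseudogenes had a log2 fold change of -0.05 (SE 0.06, 95% interval -0.18 to 0.07). SMG1P6 also shares exons with the read-through gene BOLA2-SMG1P6, and that gene, BOLA2 and SMG1P6 together had a log2 fold change of -0.08 (SE 0.12, 95% interval -0.34 to 0.19). BOLA2 alone stood at 0.0811 CPM in control replicate 1 and at 5.76 and 6.94 CPM in the other controls. SMG1P6 made up 2.37 CPM of 163 CPM of the family and of 16.3 CPM of the locus in the controls, so these sums could not have shown its loss and do not bear on it.

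Both AGAP5 and TCEA1P2, among the 10 genes of smallest p in both fits, are near-identical copies of other genes. AGAP5, of a family of Arf GTPase-activating proteins, lies at chr10:73674285-73698159 and stood at 0, 0.0384 and 0.0974 CPM with EXACT1 and 1.41, 1.57 and 1.09 CPM in the controls. Its log2 fold change was -4.28 (SE 0.54, 95% interval -5.46 to -3.09) without EXACT1 replicate 1, with an edgeR adjusted p of 0.052, and -4.78 (SE 0.86) with all 6 libraries. DESeq2 called it in both fits (adjusted p 8.33e-07 and 1.9e-05), and edgeR called it without the filter on low counts when EXACT1 replicate 1 was left out (0.0012). It aligned to AGAP4 at 98.38% identity over 2785 bases. AGAP4 stood at 3.99, 3.94 and 4.60 CPM with EXACT1 and 4.72, 5.00 and 4.22 CPM in the controls, the family sum had a log2 fold change of -0.15 (SE 0.11, 95% interval -0.40 to 0.09), and the sum over the overlapping genes of its locus -0.44 (95% interval -1.10 to 0.23). TCEA1P2 is a processed pseudogene of TCEA1, the elongation factor TFIIS, and lies at chr3:37275693-37276598. It stood at 0.497, 1.27 and 1.16 CPM with EXACT1 and 10.8, 5.45 and 4.16 CPM in the controls, with a log2 fold change of -2.49 (SE 0.41, 95% interval -3.44 to -1.54) that did not pass in edgeR. DESeq2 called it without EXACT1 replicate 1 (adjusted p 1.44e-08) and with it (0.00111). TCEA1, to which it aligned at 99.67% identity over 906 bases, stood at 57.3, 147 and 155 CPM with EXACT1 and 134, 138 and 156 CPM in the controls. The sum over TCEA1 and its pseudogenes had a log2 fold change of 0.02 (SE 0.07, 95% interval -0.12 to 0.17). Each single copy differed without overlap. In the controls AGAP5 made up 1.35 of 13.3 CPM and TCEA1P2 6.79 of 149.7 CPM of the family sum. These family sums are descriptions and could not have shown the loss of the single copy. Of the locus sum AGAP5 made up a larger part, 1.35 of 3.11 CPM in the controls, and the interval of that sum spanned 0.

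Overlapping genes and read-through transcripts, which join neighbouring genes in a single RNA, were frequent among the genes of smallest p without EXACT1 replicate 1. Among the 10 genes of smallest p in that fit, 6 shared exonic bases on a strand with another gene. Among all 17832 tested genes, 16.4% shared exonic bases in this way. With all 6 libraries the count was 2 of 10, against 16.5% of all tested genes. Of the 22 calls of DESeq2 without EXACT1 replicate 1, 15 lay in such loci. The share over all genes that DESeq2 tested was not computed. These shares are descriptions of short lists and carry no test.

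ZBED6, a transcription repressor gene that lies inside ZC3H11A, stood at 27.0, 116 and 79.5 CPM with EXACT1 and 48.8, 51.2 and 54.0 CPM in the controls. Its log2 fold change was 0.93 (SE 0.15, 95% interval 0.57 to 1.29) without EXACT1 replicate 1. ZC3H11A is a zinc finger gene to which 11745 of the 12481 bases of the longest ZBED6 transcript aligned. It stood at 0.0343, 13.1 and 55.0 CPM with EXACT1 and 98.7, 86.5 and 81.7 CPM in the controls. ZC3H11A so differed between the 2 remaining EXACT1 libraries themselves. The sum of both was 27.1, 129 and 135 CPM with EXACT1 and 147, 138 and 136 CPM in the controls, with a log2 fold change of -0.09 (SE 0.06, 95% interval -0.22 to 0.04). UTP14C, a retrocopy of a ribosome biogenesis gene, stood at 4.78, 4.95 and 1.40 CPM with EXACT1 and 0.865, 0.699 and 0.639 CPM in the controls, with a log2 fold change of 2.11 (SE 0.45, 95% interval 1.10 to 3.12). It shares 3853 bases at 100% identity with ALG11, a mannosyltransferase gene of N-glycosylation, and their sum had a log2 fold change of -0.05 (SE 0.08, 95% interval -0.22 to 0.13). In the controls UTP14C made up 0.735 of 43.9 CPM of that sum, which could not have shown its change.

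The read-through gene TVP23C-CDRT4 stood at 1.54, 26.4 and 23.4 CPM with EXACT1 and 15.3, 17.6 and 17.1 CPM in the controls, and CDRT4 at 0.480, 0.205 and 1.34 CPM with EXACT1 and 12.0, 4.43 and 2.86 CPM in the controls. In replicates 2 and 3 the former lay above the controls and the latter below them, and the sum with TVP23C had a log2 fold change of 0.07 (SE 0.09, 95% interval -0.13 to 0.26). RBM14-RBM4 joins genes of 2 RNA-binding proteins and stood at 1.32, 2.15 and 3.12 CPM with EXACT1 and 5.43, 6.45 and 5.84 CPM in the controls. Its log2 fold change was -1.17 (SE 0.22, 95% interval -1.65 to -0.69), and that of the sum with RBM14 and RBM4 was 0.01 (95% interval -0.12 to 0.15). CKLF-CMTM1, which joins chemokine-like factor genes, had 2, 0 and 0 counts with EXACT1 and 27, 44 and 21 in the controls. Without EXACT1 replicate 1 its summed counts were at least 21.4-fold lower, taking 3 counts over the group as the limit of a count of 0. This limit leaves out the spread between libraries. The locus with CKLF and CMTM1 had a log2 fold change of -0.10 (SE 0.10, 95% interval -0.31 to 0.11). In the controls RBM14-RBM4 made up 5.91 of 94.1 CPM of its sum, and CKLF-CMTM1 0.401 of 16.3 CPM. Neither sum could have shown the change of its read-through gene. None of these genes or sums passed in the edgeR test. DESeq2, without EXACT1 replicate 1, called the single genes ZBED6 (adjusted p 1.32e-09), RBM14-RBM4 (0.00465), TVP23C-CDRT4 (0.00516), CKLF-CMTM1 (0.0292) and UTP14C (0.0295). It called CDRT4 (0.0191) and UTP14C (0.0499) with all 6 libraries.

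**Figure D4:**
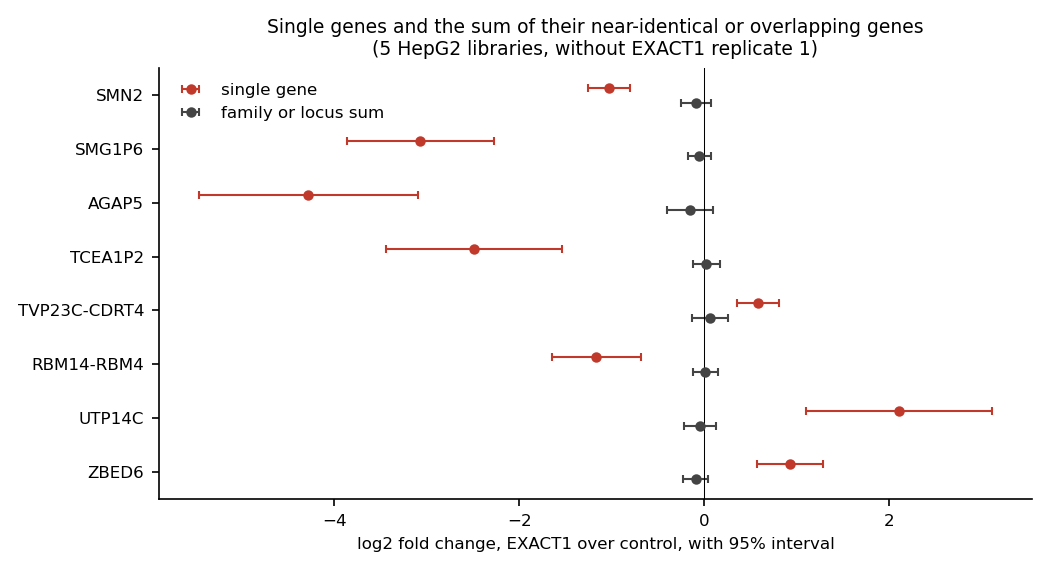
Log2 fold change of EXACT1 over control with its 95% interval for 8 single genes (red) and for the sum of each gene with its near-identical family or overlapping genes (grey), without EXACT1 replicate 1. Single genes lie between -4.28 and 2.11, and the interval of every sum spans 0. SMG1P6 (2.37 of 163 CPM in controls), AGAP5, TCEA1P2, RBM14-RBM4 and UTP14C (0.735 of 43.9 CPM) are small parts of their sums. Those sums could not have shown the change of the single gene.

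Counts of single overlapping genes also differed from library to library within a group. The part of read assignment in this was not tested. MATR3, an RNA-binding nuclear matrix gene, is listed under 2 gene IDs. ENSG00000280987 stood at 0.223, 291 and 281 CPM with EXACT1 and 183, 212 and 302 CPM in the controls. ENSG00000015479 stood at 100.5, 41.8 and 57.9 CPM with EXACT1 and 169, 139 and 52.6 CPM in the controls. The 3 genes of that locus together stood at 345 and 352 CPM in EXACT1 replicates 2 and 3 and at 365, 361 and 366 CPM in the controls. ERCC5, an endonuclease of nucleotide excision repair, stood at 0.685, 34.4 and 28.6 CPM with EXACT1 and 31.8, 4.31 and 29.6 CPM in the controls, and the read-through BIVM-ERCC5 at 11.0, 0 and 0 CPM with EXACT1 and 0, 37.2 and 0 CPM in the controls. Control replicate 2 thus differed from both other controls in ERCC5 and BIVM-ERCC5, while the summed locus with BIVM stood at 51.4, 52.2 and 54.6 CPM in the controls. In replicates 2 and 3 it stood at 55.3 and 49.8 CPM. AS3MT, an arsenic methyltransferase gene, stood at 0, 20.97 and 17.3 CPM with EXACT1 and 18.7, 23.6 and 19.96 CPM in the controls, and BORCS7-ASMT had counts in EXACT1 replicate 1 alone, at 21.8 CPM.

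The remaining named genes had no near-identical copy in GENCODE 29, apart from ENSG00000288473, which is not in that annotation and was not searched. ENSG00000288473 stood at 12.9, 14.8 and 10.9 CPM with EXACT1 and 5.45, 5.82 and 6.46 CPM in the controls. All 3 EXACT1 libraries lay above the controls, with a log2 fold change of 1.12 (SE 0.16, 95% interval 0.76 to 1.47) without EXACT1 replicate 1, an edgeR adjusted p of 0.138, and 1.12 (SE 0.24) with it. DESeq2 called it without EXACT1 replicate 1 (adjusted p 1.79e-05), as did edgeR without the filter on low counts (0.00335), and limma voom called it with all 6 libraries (0.0347). VGLL3, a cofactor of TEAD transcription factors, had 0, 0 and 0 counts with EXACT1 and 24, 12 and 22 in the controls. Summed over all 6 libraries, its counts were at least 18.4-fold lower by the same limit of 3 counts, which leaves out the spread between libraries. The edgeR 95% interval of its log2 fold change, which includes that spread, was -10.5 to -3.98. MGAM, the intestinal maltase-glucoamylase, had 0, 0 and 0 counts with EXACT1 and 20, 15 and 19 in the controls, at least 17.2-fold lower on the same basis, and MGAM2 had 11 counts in EXACT1 replicate 2 alone. The long non-coding RNA ENSG00000273381 had 0, 0 and 0 counts with EXACT1 and 13, 16 and 27 in the controls, at least 17.8-fold lower on that basis. The edgeR 95% interval of its log2 fold change was -10.5 to -3.92.

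Conversely, ENSG00000262831, an antisense gene, had 7, 37 and 48 counts with EXACT1 and 0, 0 and 0 in the controls. Its summed counts were at least 32.2-fold higher on the same basis, which leaves out the spread between libraries. It was too low to be tested by edgeR with all 6 libraries, DESeq2 called it with them (adjusted p 0.023) and without EXACT1 replicate 1 (0.0023), and edgeR without the filter on low counts called it in the latter case (0.0465). LINC02985 stood at 0.960, 0.933 and 0.548 CPM with EXACT1 and 0.203, 0.194 and 0.217 CPM in the controls, with a log2 fold change of 1.98 (SE 0.44) with all 6 libraries. The antisense gene ENSG00000262703 had 2, 2 and 1 counts with EXACT1 and 12, 36 and 21 in the controls. Each of these genes separated the groups without overlap, as 872 genes (5.09%) did with EXACT1 higher and 880 (5.13%) with EXACT1 lower among all genes tested with 6 libraries. Without EXACT1 replicate 1 the shares were 8.55% and 8.27%. None of them passed the edgeR test with its filter on low counts, and most lay below 1 CPM, where intervals reached beyond 2-fold.

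The machinery that a plasmid-borne microRNA uses had narrow intervals once EXACT1 replicate 1 was left out. DICER1, which cuts the hairpin, stood at 15.2, 67.9 and 70.5 CPM with EXACT1 and 68.6, 72.9 and 74.8 CPM in the controls, with a log2 fold change of -0.06 (SE 0.07, 95% interval -0.21 to 0.09) without EXACT1 replicate 1. AGO2, the Argonaute that can slice targets, stood at 19.04, 72.8 and 63.0 CPM with EXACT1 and 69.2, 63.5 and 63.0 CPM in the controls, with 0.06 (SE 0.08, 95% interval -0.12 to 0.23). DROSHA, which cuts the primary transcript, had -0.07 (95% interval -0.27 to 0.13), and TNRC6A, which links Argonaute to deadenylation, had -0.07 (95% interval -0.23 to 0.09). EXACT1 replicate 1 was the lowest library for all 4, which have long transcripts. Without it, the median log2 fold change was -0.01 over 15 tested microRNA processing genes, 0.01 over 14 Argonaute and silencing genes and -0.01 over 16 genes of nonsense-mediated decay. With it, the medians were -0.35, -0.25 and -0.04. The median members of these 3 lists stood at 51.9, 45.6 and 57.2 CPM. All tested members had a 95% interval within 1.5-fold without that library, as did 98.5% of all genes at 20 to 100 CPM. Of 25 genes of deadenylation and mRNA decay, 24 did so. XRN1, the 5′ to 3′ exonuclease, stood at 5.81, 34.2 and 33.8 CPM with EXACT1 and 39.8, 37.5 and 37.8 CPM in the controls, with -0.17 (SE 0.07, 95% interval -0.34 to -0.01) and no call.

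Known targets of let-7, the miR-17 family and miR-122, whose levels in HepG2 were not measured, lay close to the controls once EXACT1 replicate 1 was left out. HMGA2, a chromatin protein gene with many let-7 sites, stood at 77.2, 213 and 233 CPM with EXACT1 and 205, 208 and 243 CPM in the controls, with a log2 fold change of 0.03 (SE 0.08, 95% interval -0.15 to 0.21). IGF2BP1, an RNA-binding let-7 target, stood at 91.8, 177 and 201 CPM with EXACT1 and 174, 168 and 181 CPM in the controls, with 0.11 (SE 0.07, 95% interval -0.04 to 0.26), and HMGA1 had 0.02 (95% interval -0.11 to 0.14). Of let-7 targets, 16 of 23 lay above 0, with a median of 0.02, and 0 were called. Over all tested genes 49% lay above 0 and 0.0112% were called. Among miR-17 family targets the median was -0.02, with VEGFA at -0.16 (95% interval -0.48 to 0.15), TGFBR2 at -0.03 (95% interval -0.17 to 0.11) and TXNIP at -0.03 (95% interval -0.26 to 0.19). Among miR-122 targets it was 0.02, with the aldolase ALDOA at 0.03 (95% interval -0.11 to 0.18), PKM at 0.02 (95% interval -0.11 to 0.15) and P4HA1 at -0.08 (95% interval -0.25 to 0.09). With all 6 libraries these medians were -0.32, -0.25 and 0.04.

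Genes that hold a seed site had medians between -0.03 and -0.01 without EXACT1 replicate 1, against 0.00 in the rest. The site was the reverse complement of seed bases 2 to 8 followed by A, searched on the sense strand of the longest annotated 3′ untranslated region of each gene. The let-7 site CTACCTCA was held by 681 of 13462 tested genes without EXACT1 replicate 1 (5.06%), with a median log2 fold change of -0.01, 315 above 0 and 366 below. The miR-17 site GCACTTTA was held by 729 genes (5.42%), with a median of -0.01, 331 above 0 and 398 below. The miR-122 site ACACTCCA was held by 461 genes (3.42%), with a median of -0.01, 221 above 0 and 240 below. The miR-21 site ATAAGCTA was held by 385 genes (2.86%), with a median of -0.02, 166 above 0 and 219 below. The miR-192 site TAGGTCAA was held by 224 genes (1.66%), with a median of -0.03, 83 above 0 and 141 below. For each of the 5 sites more holders lay below 0 than above, most unevenly for miR-192, while the medians lay near 0. Over all 17832 tested genes 49% lay above 0. With all 6 libraries the medians of holders were -0.14, -0.24, -0.09, -0.30 and -0.30 in that order. None of the holders was called in either fit, against 0% of all tested genes with all 6 libraries and 0.0112% with 5. The counts of EXACT1 replicate 1 moved with transcript length, and its part in the medians of holders was not tested.

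The hepatocyte programme lay within narrow intervals once EXACT1 replicate 1 was left out. TF, the iron carrier transferrin, stood at 18866, 14292 and 12989 CPM with EXACT1 and 15352, 14061 and 12809.6 CPM in the controls, with a log2 fold change of -0.05 (SE 0.09, 95% interval -0.25 to 0.16) without EXACT1 replicate 1. The antiprotease gene SERPINA1 had 0.01 (95% interval -0.17 to 0.19), ALB -0.00 (95% interval -0.20 to 0.20) and AFP, the fetal counterpart of albumin, -0.07 (95% interval -0.27 to 0.13). With EXACT1 replicate 1 in the fit, 26 tested plasma protein genes lay above 0 and 7 below. The part of transcript length in this was not tested. APOA1, the short transcript of the main HDL protein, stood at 11168, 2785 and 2542 CPM with EXACT1 and 2799, 2736 and 2533 CPM in the controls. APOB, the very long transcript of the LDL protein, stood at 1637, 8027 and 8483 CPM with EXACT1 and 6968, 8197 and 8686 CPM in the controls. That library lay highest for the former and lowest for the latter, and without it their log2 fold changes were -0.01 (95% interval -0.18 to 0.15) and 0.05 (95% interval -0.16 to 0.27). Over 33 tested plasma protein genes the median was -0.01 without EXACT1 replicate 1 and 0.37 with it.

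Among 24 hepatocyte transcription factors 0 were called in either edgeR fit, against 0% and 0.0112% of all tested genes. Without EXACT1 replicate 1, 20 were bounded within 1.5-fold. Of all genes, 98.5% were so bounded at 20 to 100 CPM and 86.2% at 5 to 20 CPM. HNF4A, the nuclear receptor at the centre of the network, stood at 246, 212 and 222 CPM with EXACT1 and 219, 218 and 206 CPM in the controls, with 0.02 (SE 0.06, 95% interval -0.11 to 0.14), PROX1 had 0.00 (95% interval -0.13 to 0.13) and RXRA 0.07 (95% interval -0.10 to 0.24). GATA4, a zinc finger factor of the early liver, had an unadjusted p under 0.05 (0.22, 95% interval 0.01 to 0.43) and was not called. HNF4G, a paralogue of HNF4A, stood at 5.29, 7.52 and 7.04 CPM with EXACT1 and 10.3, 28.2 and 26.2 CPM in the controls. Its groups did not overlap, but control replicate 1 lay close to the EXACT1 libraries, and the log2 fold change of -1.57 (SE 0.56, 95% interval -3.23 to 0.09) did not pass. An alternative edgeR fit with replicate number as a block called HNF4G without EXACT1 replicate 1 (-1.90, adjusted p 5.85e-12). Whether these numbers pair the libraries is not stated. In lipid metabolism, FASN, the fatty acid synthase, had 0.08 (95% interval -0.05 to 0.21), the desaturase SCD -0.03 (95% interval -0.18 to 0.13) and the lipid droplet coat PLIN2 -0.04 (95% interval -0.23 to 0.16). The cholesterol synthesis enzymes FDFT1 (-0.02, 95% interval -0.14 to 0.11) and MSMO1 (-0.08, 95% interval -0.24 to 0.08) were bounded as closely. Medians were 0.02 for fatty acid synthesis, -0.03 for fatty acid oxidation, -0.00 for cholesterol, 0.02 for urea cycle and amino acid enzymes and 0.05 for drug metabolism. In these 5 lists 0 genes were called, against 0.0112% of all tested genes.

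Innate immune and stress genes were listed because foreign nucleic acid can induce them. Of tested interferon-stimulated genes, 26 of 34 lay above 0 without EXACT1 replicate 1, with a median of 0.15, against 49% and 0.00 over all genes. The abundant IFITM2 and IFITM3, restriction factors at the membrane, had 0.01 (95% interval -0.21 to 0.23) and 0.08 (95% interval -0.11 to 0.27). OASL, a relative of the oligoadenylate synthetases, stood at 1.20, 0.627 and 0.755 CPM with EXACT1 and 0.311, 0.130 and 0.243 CPM in the controls. All 3 EXACT1 libraries lay above the controls, and its log2 fold change was 1.59 (SE 0.59, 95% interval 0.29 to 2.90) with no call. BST2, or tetherin, had 0.17 (95% interval 0.00 to 0.33). Of the nucleic acid sensors 10 of 13 lay above 0, with a median of 0.17. Among them IFIH1 stood at 3.02, 9.31 and 9.51 CPM with EXACT1 and 8.61, 7.65 and 7.45 CPM in the controls, with 0.25 (SE 0.14, 95% interval -0.05 to 0.55), and the kinase EIF2AK2 at 24.1, 53.9 and 51.1 CPM with EXACT1 and 53.6, 58.5 and 66.2 CPM in the controls, with -0.18 (SE 0.09, 95% interval -0.38 to 0.02). No member of either list was called, against 0.0112% of all tested genes. Within 1.5-fold 16 of 34 interferon-stimulated genes were bounded, against 13.7% of all genes at 1 to 5 CPM and 86.2% at 5 to 20 CPM.

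In the integrated stress response, the transcription factor ATF4 had 0.04 (95% interval -0.13 to 0.21), the amino acid transporter SLC7A5 0.06 (95% interval -0.09 to 0.20) and the stress cytokine GDF15 0.08 (95% interval -0.08 to 0.23). The phosphatase subunit PPP1R15A (0.23, 95% interval 0.01 to 0.45) and the tRNA synthetase WARS1 (0.25, 95% interval 0.03 to 0.47) had unadjusted p under 0.05. The list median was 0.06, with 19 of 27 members above 0 and 0 called, against 49% and 0.0112% of all tested genes. Medians were -0.02 for NF-kB targets, -0.01 for p53 targets, -0.00 for endoplasmic reticulum chaperones, -0.02 for cytosolic heat shock genes, 0.02 for apoptosis genes and 0.00 for immediate early genes. HSPA5, the main chaperone of the endoplasmic reticulum, had -0.01 (95% interval -0.19 to 0.18), and the p53 target MDM2 -0.03 (95% interval -0.19 to 0.12). All 26 tested p53 targets had an interval within 1.5-fold, as did 98.5% of all genes at 20 to 100 CPM.

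Growth and housekeeping genes showed the reach of EXACT1 replicate 1 most clearly. Of 78 cytosolic ribosomal protein genes, 77 lay above 0 with all 6 libraries, against 50.1% of all genes, with a median of 0.66, and 30 of 78 lay above 0 without that library, with a median of -0.01. RPLP0, of the ribosomal stalk, stood at 4113, 1511 and 1451 CPM with EXACT1 and 1496, 1471 and 1447 CPM in the controls. The 3 most abundant glycolysis genes behaved unlike each other in that library. GAPDH stood at 20392, 6329 and 5196 CPM with EXACT1 and 5553, 6052 and 5594 CPM in the controls, and LDHA at 2983, 2939 and 2835 CPM with EXACT1 and 2883, 2887 and 2888 CPM in the controls. Without it, their log2 fold changes were 0.01 (95% interval -0.20 to 0.21) and -0.00 (95% interval -0.14 to 0.14), and ENO1 had 0.02 (95% interval -0.13 to 0.17). Mitotic genes had a median of -0.28 with 6 libraries and -0.01 with 5. All 32 were then bounded within 1.5-fold, as were 98.5% of all genes at 20 to 100 CPM. TOP2A had -0.08 (95% interval -0.23 to 0.08), AURKA 0.02 (95% interval -0.11 to 0.15) and TPX2 -0.01 (95% interval -0.14 to 0.12). DNA replication genes had a median of 0.06, with 25 of 34 above 0 and 0 called, against 49% and 0.0112% of all tested genes. For 70 nuclear genes of the respiratory chain the medians were 0.49 and 0.01. For the 13 mRNAs of the mitochondrial genome they were 0.45 and -0.07, with 12 of 13 above 0 in the former fit and 1 of 13 in the latter. Over 1037 genes on any list, 951 were tested without EXACT1 replicate 1, 1 was called and 811 were bounded within 1.5-fold. Of all tested genes 0.0112% were called and 56.6% were so bounded, and of those at 20 to 100 CPM 98.5% were bounded.

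**Figure D5:**
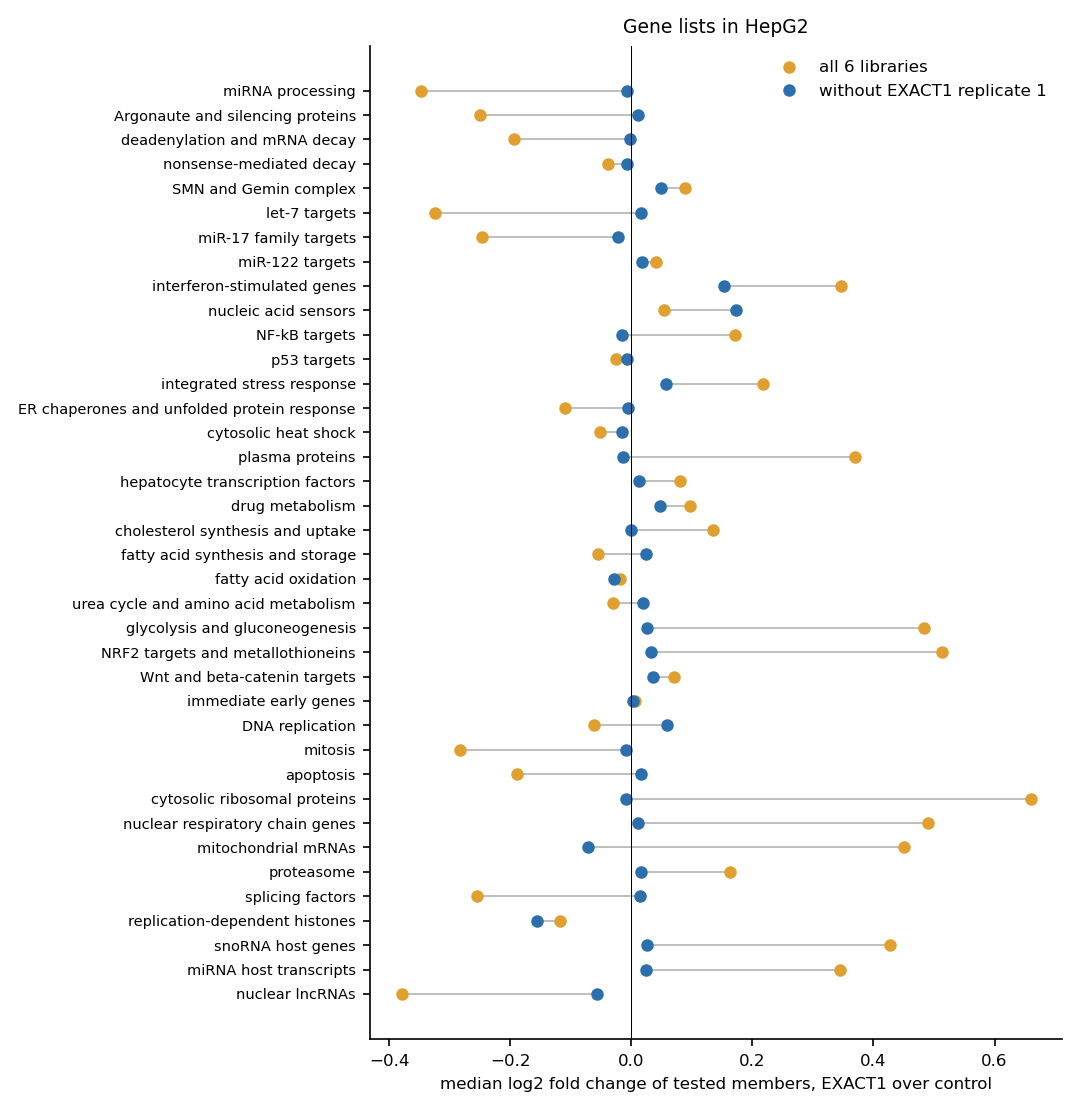
Median log2 fold change of the tested members of 38 gene lists (horizontal axis), with all 6 libraries (orange) and without EXACT1 replicate 1 (blue). The medians range from -0.38 for nuclear lncRNAs to 0.66 for ribosomal proteins with all libraries, and from -0.16 for replication-dependent histones to 0.17 for nucleic acid sensors without that library.

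Several nuclear and ribosomal RNAs lay lower with EXACT1 without passing the main edgeR test. Of 13 tested nuclear long non-coding RNAs, 2 lay above 0 without EXACT1 replicate 1, with a median of -0.06. MALAT1, of nuclear speckles, stood at 12.5, 40.7 and 37.3 CPM with EXACT1 and 54.6, 63.5 and 42.0 CPM in the controls, with -0.45 (SE 0.16, 95% interval -0.83 to -0.07). NEAT1, the scaffold of paraspeckles, stood at 28.2, 57.9 and 61.0 CPM with EXACT1 and 80.8, 91.0 and 59.0 CPM in the controls, and its groups overlapped. RPPH1, the RNA of ribonuclease P, stood at 0.548, 0.716 and 0.694 CPM with EXACT1 and 1.88, 1.13 and 1.42 CPM in the controls, with -1.06 (SE 0.35, 95% interval -1.84 to -0.29). The more abundant NORAD (-0.06, 95% interval -0.18 to 0.07), OIP5-AS1 (-0.04, 95% interval -0.16 to 0.09) and TUG1 (0.01, 95% interval -0.12 to 0.14) lay near 0. Genes overlapping the 45S ribosomal RNA repeats on chromosomes 21 and 22 took 0.430, 0.527 and 0.474% of counts with EXACT1 and 0.803, 0.756 and 0.616% in the controls, without overlap. Most of these counts fell in minus-strand genes such as ENSG00000280800 (chr21:8210384-8211306), which stood at 1651, 1599 and 1363 CPM with EXACT1 and 2462, 2286 and 1808 CPM in the controls. Its log2 fold change was -0.56 (SE 0.13, 95% interval -0.86 to -0.26) without EXACT1 replicate 1 and -0.51 (SE 0.23) with it. The edgeR fit with a replicate block called ENSG00000280800 without EXACT1 replicate 1 (-0.46, adjusted p 4.46e-07). Replication-dependent histone genes, whose mRNAs mostly lack a poly(A) tail, had a median of -0.16 without EXACT1 replicate 1. The part of poly(A) selection or RNA extraction in these values was not tested.

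The difference between HepG2 and the neuroblastoma line SH-SY5Y, given the same plasmids by nucleofection, was tested as an interaction in a joint edgeR fit. It called 0 of 22009 genes with 12 libraries (1907 at an unadjusted p under 0.05) and 0 of 23089 without HepG2 EXACT1 replicate 1 (766 at an unadjusted p under 0.05, smallest adjusted p 0.0583). For SMN2, the log2 fold change in SH-SY5Y was 0.14, and the difference of HepG2 from it was -1.15 (SE 0.36, adjusted p 0.923) in the fit without that library. No gene named here passed this test, so a difference between the lines was not shown, and the intervals do not show that the lines respond alike.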

How the data were processed

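Gene counts that the authors deposited, whole numbers without normalization by Ensembl gene, were used. The submitters' processing notes name the build GRCh38 (hg38) and the tools HISAT2, StringTie, cutadapt, limma and edgeR. Tool versions, strand setting and the handling of reads matching several genes were not stated there. They decide how near-identical or overlapping genes share counts. Library totals limit precision as given by the intervals, which also cover the spread between libraries.

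Groups and replicate numbers came from the sample titles. The 6 HepG2 columns were fitted with edgeR 4.0.16 in R 4.3.3 (filterByExpr, TMM, robust quasi-likelihood F test, two-sided), with all libraries and without EXACT1 replicate 1, and a call needed an adjusted p below 0.05 (Benjamini-Hochberg). Fold changes compare EXACT1 with control. CPM use the TMM-scaled library sizes of all 6 libraries. The labels do not say that same-numbered libraries share a day or culture, so no block was used. Correlations of residuals between same-numbered libraries were 0.00594, -0.0174 and 0.0290. The deviation of EXACT1 replicate 1 dominates the residuals of its group, so these correlations could not show pairing. They were not computed without that library. GENCODE 29 on GRCh38 gave positions, transcript lengths, 3′ untranslated regions and overlaps (at least 1 shared exonic base on a strand), and BLAST 2.17.0 gave identities between transcripts. DESeq2 1.42.0, limma 3.58.1 (voom with sample weights), other scalings, filters, a replicate block, summed families, summed overlapping genes, a spread shared with SH-SY5Y and each library left out were alternatives. Summing overlapping genes was chosen after seeing the data. The test was tried on simulated counts.

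Named genes were, per fit, called genes with a mean of at least 1 CPM, up to 10 per direction, filled to 10 in all by smallest p. They also included the 3 most abundant members of each list, family members of named genes, the 10 genes furthest above and below in EXACT1 replicate 1, AGO2 and DICER1. From these the text gives the members each result turns on. Other list members and overlapping partners were chosen after their values were seen. The comparison and the 45 gene lists were chosen with earlier results of these data known. HEK293A libraries were not used, and some genes are not reported here.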

Additional observations from a re-analysis of the deposited data

How the results depend on the processing

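With all 6 libraries edgeR called 0 genes, also with 2 other scalings, no filter, a mean of at least 5 CPM, the replicate block, summed families, summed overlapping genes and a spread shared with SH-SY5Y. DESeq2 called 11 genes and limma voom 2, and leaving out each library gave 0 to 2 calls. Without EXACT1 replicate 1 edgeR called 2 genes, also with both other scalings. In that fit DESeq2 called 22, limma voom 1, no filter 5, a mean of at least 5 CPM 1, a spread shared with SH-SY5Y 1 (ZNF225-AS1) and summed overlapping genes 1 (SMN2). Summing SMN1 with SMN2 and the other near-identical families left 0 calls (edgeR smallest adjusted p 0.553, 461 genes at an unadjusted p under 0.05). The replicate block gave 35 calls, and whether the numbers pair the libraries is not stated. Leaving out a further library gave 0 to 11 calls: 0 without control replicate 2, 11 without control replicate 3, 11 without EXACT1 replicate 3 and 5 without EXACT1 replicate 2. Where 1 EXACT1 library remained, it was assumed to vary like the controls. Apart from the construction of the summed counts and the fewer libraries, the cause was not tested. TVP23C-CDRT4, at 0.04 with all 6 libraries, changed sign with the replicate block (-0.58), without EXACT1 replicate 2 (-0.41), without EXACT1 replicate 3 (-0.25) and without control replicate 1 (-0.02), and ranged from -0.41 to 0.58 over single libraries left out. Low counts limit genes below 1 CPM, and EXACT1 replicate 1 limits the fit that holds it.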

Other observations

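Genes that stood furthest apart in EXACT1 replicate 1 are given as values, since they belong to no comparison of the groups. The furthest above the mean of replicates 2 and 3 was the read-through gene SLX1A-SULT1A3, by 5.64 on the log2 scale, at 87.7, 2.76 and 0.463 CPM with EXACT1 and 0.743, 2.90 and 36.7 CPM in the controls. SULT1A3, a sulfotransferase gene of that locus, stood at 29.2, 35.4 and 35.6 CPM with EXACT1 and 35.3, 41.9 and 8.30 CPM in the controls, so control replicate 3 was also unlike the other controls in both. Genes of overlapping loci followed, such as the read-through FAM47E-STBD1 (3.31). Among the 10 furthest above were also genes with short transcripts, TOMM6, a small subunit of the mitochondrial import pore (3.01), PPDPF (2.64) and HES4, a Notch effector (2.58). Below it lay MATR3 (-8.63), SENP3-EIF4A1 (-6.43), ZC3H11A (-5.68), ZNF770 (-5.54), the splicing regulator MBNL2 (-5.20) and the DNA translocase HLTF (-5.14). ZNF770 stood at 1.01, 69.9 and 70.1 CPM with EXACT1 and 75.0, 67.6 and 71.1 CPM in the controls, and MBNL2 at 3.07, 136 and 126 CPM with EXACT1 and 153, 136 and 135 CPM in the controls. In both, EXACT1 replicate 1 was the lowest library by far.

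Replication-dependent histone genes, whose mRNAs mostly lack a poly(A) tail, had a median of -0.16 without EXACT1 replicate 1 over 24 tested genes. Of these 5 lay above 0 and 0 were called, against 49% and 0.0112% of all tested genes. The most abundant, H1-2, stood at 22.7, 8.49 and 8.01 CPM with EXACT1 and 8.72, 9.52 and 8.89 CPM in the controls, with a log2 fold change of -0.13 (SE 0.13, 95% interval -0.42 to 0.16). H2AC11 stood at 0.0685, 0.0511 and 0.0365 CPM with EXACT1 and 0.581, 0.246 and 0.371 CPM in the controls, without overlap between the groups. Other genes with an unadjusted p under 0.05 in the fit without that library were POLH, a translesion polymerase (-0.24, SE 0.09, 95% interval -0.44 to -0.04), CDC6, a replication licensing factor (0.26, SE 0.11, 95% interval 0.01 to 0.51), the metallothionein MT1E (0.53, SE 0.24, 95% interval 0.00 to 1.07) and CYP2D6 (-0.71, SE 0.32, 95% interval -1.42 to -0.00). None of them was called by edgeR.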
